A study of Mus musculus with 6 samples.

Results

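The nuclear genes for the respiratory chain and the ATP synthase were examined in RNA-seq counts of whole pancreatic islets from mice with and without endothelial Ern1. The genes were taken by a naming rule that was set with earlier results of these data known. The rule takes every symbol beginning with Ndufa, Ndufb, Ndufc, Ndufs or Ndufv and a digit. It also takes Sdha to Sdhd, every Uqcr gene, Cox4 to Cox8 genes, Cycs, and every Atp5 gene. This gave 82 of the 11106 genes in the table, of which 36 belong to complex I, 4 to complex II, 8 to complex III, 1 is cytochrome c, 16 belong to complex IV and 17 to complex V. Ndufa4 and its paralog Ndufa4l2, named for complex I, are counted here with complex IV, where the Ndufa4 protein is now placed. A total of 81 genes passed the filter on low counts, and Cox7a1, a complex IV isoform of heart and skeletal muscle, did not.

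The study compared 3 Ern1 EC-KO mice (Ern1 fl/fl with VE-cadherin-Cre-ERT2; knockout 11, 12 and 13), in which both floxed Ern1 alleles could be removed by a tamoxifen-inducible Cre driven by the VE-cadherin promoter of endothelial cells, with 3 Ern1 fl/fl littermates (floxed 8, 18 and 19). The protein made from Ern1, IRE1α, senses stress in the endoplasmic reticulum. All 6 mice were male, received 2 mg tamoxifen daily for 5 days at 4 weeks of age, and were fed for 16 weeks on feed in which fat supplied 60% of calories, starting at 8 weeks. Endothelial cells make up a small part of an islet and every other cell type keeps Ern1, so the chain genes, which all of these cells express, were read mainly from cells with an intact gene.

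The respiratory chain sits in the inner mitochondrial membrane. Complex I takes electrons from NADH and complex II from succinate, complex III passes them to cytochrome c, and complex IV gives them to oxygen, while complexes I, III and IV pump protons whose return through complex V, the ATP synthase, makes ATP. In the beta cell this ATP closes the KATP channel and so links glucose breakdown to insulin release. Some chain subunits are encoded by mitochondrial DNA. The counts hold none of these genes, so they could not be analysed here.

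Total counts ran from 18470720 to 18957444 per library. The insulin genes Ins1 and Ins2, which mark islets, held 37.2, 28.2 and 29.3% of counts in knockout 11, 12 and 13, and 40.1, 43.4 and 42.1% in floxed 8, 18 and 19, lower in every knockout library. Other islet and vessel markers also had negative log2 fold changes, in 8 of 10 beta markers (median -0.19), 5 of 5 alpha markers (-0.18), 8 of 8 endothelial markers (-0.28, 5 at an unadjusted p below 0.05) and 3 of 3 pericyte markers (-0.40), and their part in the values of the chain genes was not tested. Of 3 delta and PP markers, 2 were negative, and of 3 ductal markers, 2 were positive. All 4 macrophage markers were positive and highest in knockout 12, where Lyz2 had 44.2 CPM against 4.01 to 8.16 CPM in the other libraries. The part of these lists was not tested either. Floxed 8 was the highest library in all 5 alpha markers and knockout 13 the lowest in 4. The alpha markers held 3.15% of counts in floxed 8, 1.88 and 1.70% in floxed 18 and 19, and 1.65 to 2.03% in knockout libraries. Of the marker lists used, the 13 acinar markers held 9.81, 12.6 and 14.6% of counts in knockout 11, 12 and 13 and 6.76, 2.19 and 4.41% in floxed 8, 18 and 19, so exocrine RNA was higher in every knockout library. The 8 immediate early genes held 0.897, 0.968 and 0.988% in the knockout libraries, 0.654% in floxed 8, and 0.120 and 0.117% in floxed 18 and 19. Floxed 8 thus stood nearer to the knockout libraries than to the other floxed libraries in these genes. It also did so in the 8 endothelial markers, with 0.0378% of counts against 0.0374 to 0.0376% in the knockout and 0.0523 and 0.0571% in the other floxed libraries. Ern1 itself, over the whole islet, had log2 fold change 0.05, SE 0.17 (edgeR adjusted p = 0.920), a value that checks the endothelial deletion very little.

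The chain genes as a group lay slightly lower in knockout than in floxed islets, and no single gene passed the threshold. Of the 81 genes tested, 76 had a negative log2 fold change of knockout against floxed, where 50.5% of all 11080 genes tested did, and 5 had a positive one, where 49.5% did. The median was -0.14, against -0.00292 over all genes, and the middle 50% of the chain genes lay between -0.22 and -0.06. By edgeR's quasi-likelihood test with Benjamini-Hochberg adjustment over all genes, 0 were called lower, where 0.0632% of all genes were, and 0 were called higher, where 0.343% were (0.406% in either direction). At an unadjusted p below 0.05, 13 chain genes were lower and 0 higher, and the corresponding shares of all genes were 6.96% and 11%. DESeq2 called 1 of them lower (background 1.23%) and 0 higher (3.86%). With limma-voom and quality weights, 5 were called lower (background 5.19%) and 0 higher (9.89%). Both counts of lower genes lie near the share of all genes called lower in the same fit. The 3 libraries of each group did not overlap for 15 chain genes, all lower in knockout, where 10.2% of all genes were lower and 14.1% higher without overlap.

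These values are small. The median standard error of a chain gene was 0.11 on the log2 scale, and 58 of the 81 had a 95% interval that stayed within 0.5 in both directions. Only Ndufa4, Cox4i2 and Ndufb4c had log2 fold changes below -0.5. In whole islets, fewer cells of a type and less RNA per cell cannot be told apart.

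**Figure D1:**
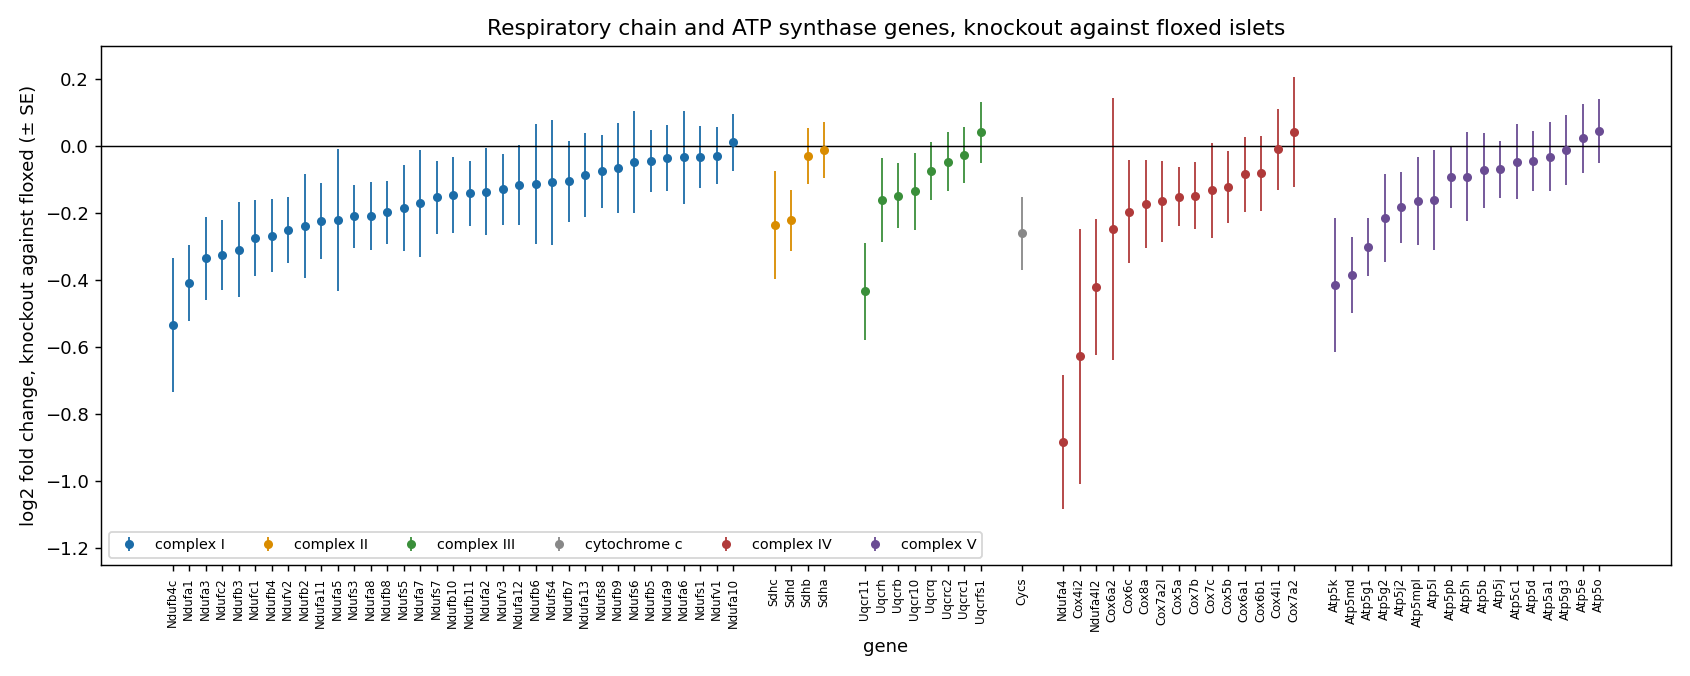
Log2 fold change of knockout against floxed islets (vertical axis) with its standard error for 80 of the 81 tested genes, sorted within complexes I to V and cytochrome c. Most points lie a little below 0, 5 lie above it, and Ndufa4 in complex IV lies lowest at -0.88.

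The promoters of 3 genes are shown because the results below turn on 2 of them, Ndufa4 and Atp5g1, and because Cycs is a textbook target of NRF1, the factor that binds many respiratory gene promoters. Each is the 250 bases before a RefSeq start site in GRCm38.p6, on the minus strand at chr6:11907451-11907700, chr11:96075632-96075881 and chr6:50566570-50566819. The Atp5g1 window lies partly inside the annotated gene, which reaches to 96075694, so its start site is not the outermost one. Capitals mark a core of the NRF1 motif (GCATGCG), an ETS motif as bound by GABPA (CCGGAAG) and the CCAAT box (CCAAT), each searched on both strands. The NRF1 core and its reverse complement overlap in Cycs, as do 2 CCAAT boxes on opposite strands in Atp5g1.
Ndufa4: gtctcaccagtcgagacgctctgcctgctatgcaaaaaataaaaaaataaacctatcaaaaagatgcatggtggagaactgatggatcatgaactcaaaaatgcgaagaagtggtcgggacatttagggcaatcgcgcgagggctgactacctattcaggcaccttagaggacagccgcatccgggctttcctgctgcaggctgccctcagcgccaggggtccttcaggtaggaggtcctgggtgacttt
Atp5g1: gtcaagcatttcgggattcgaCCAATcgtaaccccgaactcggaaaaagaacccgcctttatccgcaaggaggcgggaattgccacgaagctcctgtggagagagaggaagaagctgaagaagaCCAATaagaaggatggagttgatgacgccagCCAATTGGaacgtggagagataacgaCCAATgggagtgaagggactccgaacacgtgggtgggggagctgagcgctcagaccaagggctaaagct
Cycs: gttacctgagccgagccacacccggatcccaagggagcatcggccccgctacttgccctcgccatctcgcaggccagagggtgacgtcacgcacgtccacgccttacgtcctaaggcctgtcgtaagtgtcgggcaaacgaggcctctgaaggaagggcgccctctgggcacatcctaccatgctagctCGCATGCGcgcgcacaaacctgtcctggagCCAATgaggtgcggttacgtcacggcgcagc

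The Cycs window held the NRF1 core and 1 CCAAT box, the Atp5g1 window held CCAAT boxes only, and the Ndufa4 window held none of the 3 motifs. RefSeq promoter windows were found for 66 of the 82 genes, in 71 windows. The NRF1 core was in 14.1% of these windows, against 5.39% of the 11572 windows of all genes in the table. The ETS motif was in 16.9% against 13.6%, and the CCAAT box in 42.3% against 35.0%. A match here is a match of letters, not a measured site.

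Complex I gave the most genes and a median of -0.15. Its 7 nuclear core subunits, which carry the flavin, the iron-sulfur clusters and the quinone site, all had negative values, with a median of -0.15. Ndufv2, an iron-sulfur protein of the NADH-binding module, stood at 39.1, 36.4 and 34.2 CPM (TMM-scaled counts per library size) in knockout 11, 12 and 13, while it had 47.7, 39.9 and 42.9 CPM in floxed 8, 18 and 19. The groups were apart by a narrow margin between knockout 11 and floxed 18, and the log2 fold change came to -0.25, SE 0.10 (edgeR adjusted p = 0.234). Ndufs3, a subunit of the matrix arm, was likewise lower without overlap, at log2 fold change -0.21 (edgeR adjusted p = 0.283). Ndufs1, the largest core subunit, and Ndufv1, which binds NADH, had values of -0.03 each.

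Of the 29 accessory subunits of complex I, which surround the core and stabilise it, 28 had negative values and the median was -0.14. Ndufa1, a small membrane subunit encoded on the X chromosome, stood at 21.8, 18.7 and 18.9 CPM in the knockout libraries, against 28.8, 23.1 and 26.9 CPM in floxed 8, 18 and 19. Every knockout value lay below every floxed value, and the log2 fold change came to -0.41 (SE 0.11, 95% interval -0.67 to -0.15, edgeR adjusted p = 0.125). Ndufc2, a subunit of the membrane arm, stood at 50.1, 45.8 and 41.6 CPM in knockout islets, against 62.5, 51.8 and 58.0 CPM in floxed. It too was apart, at log2 fold change -0.32 (edgeR adjusted p = 0.161). Ndufc1, also of the membrane arm, was lower without overlap, from 13.4 to 16.4 CPM in knockout and from 16.6 to 18.99 CPM in floxed libraries (log2 fold change -0.27, edgeR adjusted p = 0.248). Ndufa3, another membrane subunit, had 23.4, 21.5 and 17.5 CPM across knockout and 25.04, 24.83 and 28.8 CPM across floxed islets (log2 fold change -0.33, edgeR adjusted p = 0.208).

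Ndufa6, the accessory gene with the highest level per length (117 CPM per kilobase), stood at 44.3, 47.6 and 40.9 CPM in knockout islets, against 55.8, 40.7 and 39.6 CPM in floxed. Only floxed 8 was apart from the rest, and the log2 fold change of -0.03 became 0.14 without that library. Ndufb4c had the most negative value in the complex, -0.53 (SE 0.20, edgeR adjusted p = 0.216), at 2.96 ± 0.459 CPM across knockout and 4.30 ± 0.636 CPM across floxed islets (SD, n = 3 each). Its counts and those of the related Ndufb4 (log2 fold change -0.27) were not whole numbers in the table, so the split of reads between these 2 genes is uncertain. Ndufa10, with 0.01, was the complex I gene above 0.

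Complex II, which also serves the citric acid cycle, had values nearer 0 in its catalytic subunits than in its membrane anchors. Sdha, the flavoprotein, was nearly level, at 134.8, 133.7 and 135.5 CPM in knockout 11, 12 and 13, with 139.3, 135.2 and 132.6 CPM in floxed 8, 18 and 19. Its log2 fold change was -0.01 with a 95% interval from -0.20 to 0.18, and that of the iron-sulfur subunit Sdhb was -0.03 with an interval from -0.22 to 0.16. Sdhd, a membrane anchor, stood at 46.1, 42.8 and 42.2 CPM in knockout islets, against 55.6, 48.0 and 49.2 CPM in floxed, without overlap (log2 fold change -0.22, edgeR adjusted p = 0.247). Sdhc, the other anchor, overlapped, with 43.7 to 57.6 CPM in knockout and 51.1 to 75.2 CPM in floxed islets (log2 fold change -0.23, edgeR adjusted p = 0.494, and -0.05 without floxed 8). The difference between anchors and catalytic subunits was not tested.

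In complex III the core proteins and the Rieske protein were closer to 0 than the small subunits. That difference was not tested, and it cannot be told apart from transcript length here. The small subunits have transcripts of 434 to 535 bases and the others of 1363 to 1896, and with a length trend removed the small subunits other than Uqcr11 lay between -0.03 and 0.06. Uqcrc1 and Uqcrc2, the core proteins, had log2 fold changes of -0.03 and -0.05, and Uqcrfs1, the Rieske iron-sulfur protein, had 0.04. The 5 small subunits all had negative values, with a median of -0.15. Uqcr11, the smallest of the complex, stood at 26.2, 21.9 and 23.3 CPM in knockout islets, against 39.3, 27.2 and 30.0 CPM in floxed. The groups did not overlap, floxed 8 was far above the other 5 libraries, and the log2 fold change came to -0.43, SE 0.14 (edgeR adjusted p = 0.172), or -0.27 without floxed 8. Uqcrb, with the highest level per length in the complex (122 CPM per kilobase), had a log2 fold change of -0.15, which ran from -0.25 to -0.10 with single libraries left out. Uqcrh, the hinge protein, had one of -0.16, or -0.04 without floxed 8. Cycs, which encodes cytochrome c, stood at 53.0, 49.6 and 54.3 CPM in knockout islets, against 68.1, 53.3 and 66.6 CPM in floxed. Floxed 18 lay among the knockout libraries, and the log2 fold change came to -0.26, SE 0.11 (edgeR adjusted p = 0.251).

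Complex IV held the gene that stood farthest from the rest. Ndufa4, a small subunit of cytochrome c oxidase on chromosome 6 (11900372 to 11907450, GRCm38), stood at 32.2, 30.7 and 21.3 CPM in knockout 11, 12 and 13, while it had 39.9, 53.6 and 61.5 CPM in floxed 8, 18 and 19. All 3 knockout values were below all 3 floxed values, and floxed 8 was the nearest to them. The log2 fold change came to -0.88 (SE 0.20, 95% interval -1.35 to -0.42), the unadjusted p was 0.00250, and the edgeR adjusted p over all genes was 0.0923, which missed 0.05. Ndufa4 was called lower by DESeq2 (log2 fold change -0.89, adjusted p = 0.00103), by limma-voom with quality weights (-1.09, adjusted p = 0.00338) and by edgeR without floxed 8 (-1.04, adjusted p = 0.0126). Those fits called 1.23%, 5.19% and 5.7% of all genes lower, against 0.0632% in the fit reported first. Over 17 alternative settings the log2 fold change ran from -1.09 to -0.46 and the adjusted p from 9.1e-04 to 0.762, with the value nearest to 0 under the acinar marker level as a covariate. That level did not overlap between the groups, so the fit can hardly tell it apart from genotype. The order of the libraries in Ndufa4 also followed their acinar share in part, since floxed 18 and 19, the highest in Ndufa4, had the lowest acinar shares and knockout 13, the lowest, had the highest share. The immediate early share ran in exactly the reverse order of Ndufa4 over the 6 libraries, and its part in the result was not tested.

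The rest of complex IV lay closer to 0. The other 10 ordinary subunits had log2 fold changes from -0.20 (Cox6c) to 0.04 (Cox7a2). For every 100 CPM summed over these 10, Ndufa4 had 4.23, 4.58 and 3.32 CPM in knockout 11, 12 and 13, 4.71 CPM in floxed 8, and 7.98 and 8.5 CPM in floxed 18 and 19. This ratio within each library does not depend on library scaling, and in it floxed 8 was close to the knockout libraries. It was chosen after the values were seen and was not tested. Cox8a, the gene with the highest level per length of the whole group (350.5 CPM per kilobase), had 209, 167 and 168 CPM across knockout and 230.2, 188 and 195 CPM across floxed islets, which overlap (log2 fold change -0.17, edgeR adjusted p = 0.535, and -0.08 without floxed 8). Cox5a, an early-assembling subunit, was lower without overlap by a small margin, at 19.5 ± 0.505 CPM across knockout and 21.7 ± 0.894 CPM across floxed islets (SD, n = 3 each; log2 fold change -0.15).

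**Figure D2:**
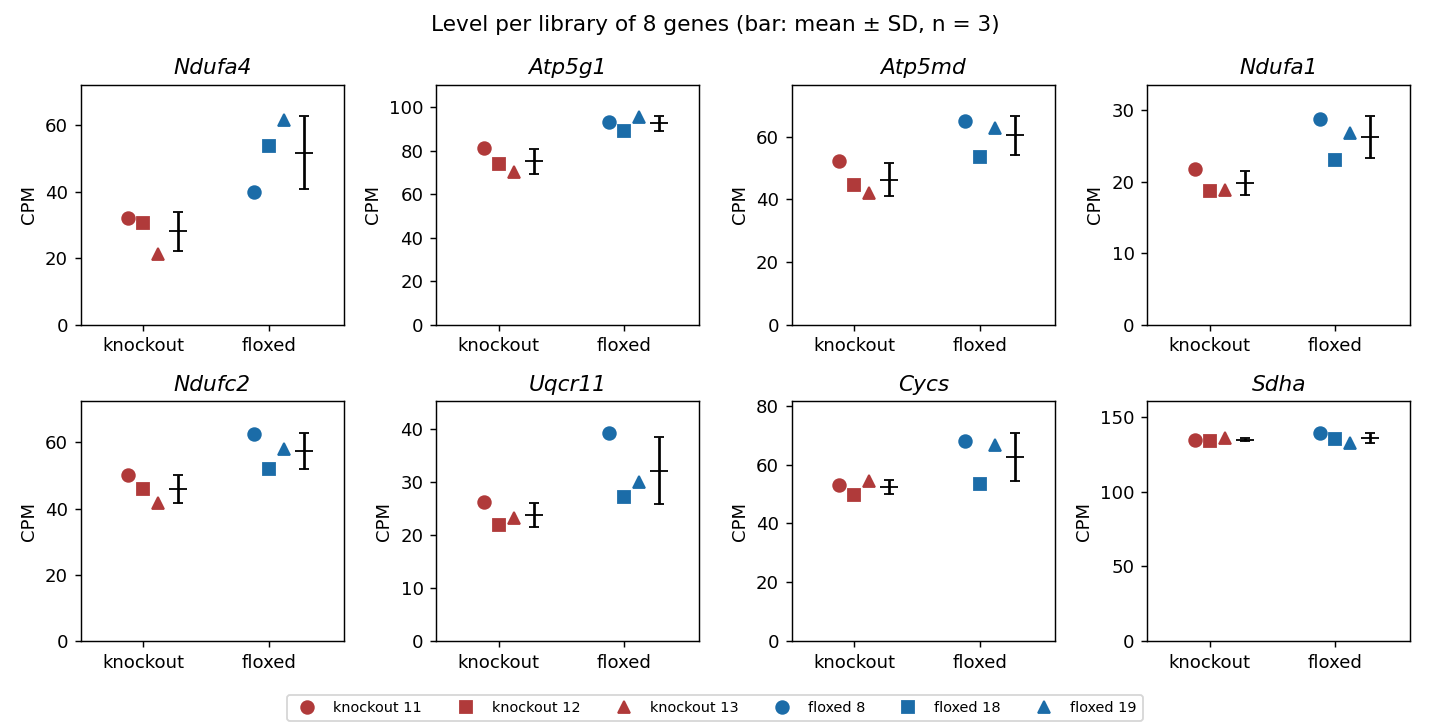
CPM (vertical axes, from 0) of 8 genes in each knockout and floxed library, with the mean and SD of each group of 3. Ndufa4 ran from 21.3 to 32.2 CPM in knockout and from 39.9 to 61.5 CPM in floxed islets, while Sdha was between 132.6 and 139.3 CPM in all 6 libraries.

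Isoforms of complex IV known from other tissues were low, apart from Cox6a2. Cox7a1 was between 0.144 and 0.571 CPM in all 6 libraries. Cox4i2, an oxygen-responsive isoform best known from the lung, stood at 1.54, 0.711 and 0.668 CPM across knockout and 1.27, 1.87 and 1.32 CPM across floxed islets, and made up at most 2.41% of the summed CPM of Cox4i1 and Cox4i2. Cox6a2, the isoform of heart and skeletal muscle, stood at 19.4, 10.5 and 13.2 CPM in knockout islets, against 25.8, 15.03 and 10.3 CPM in floxed, which was 7.10 to 16.6% of the summed CPM of Cox6a1 and Cox6a2. None of 5 muscle or brown fat markers was in the table, and the cell source of this signal was not tested. Exons of Cox6a2 overlap Itgad on the opposite strand. Ndufa4l2, the hypoxia-induced paralog of Ndufa4, had 3.23 ± 0.303 CPM across knockout and 4.32 ± 0.878 CPM across floxed islets (SD, n = 3 each), without overlap (log2 fold change -0.42, edgeR adjusted p = 0.319).

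Complex V held the most counts and had a median of -0.09. The medians of the complexes, -0.15, -0.12, -0.10, -0.15 and -0.09 for I to V, became -0.09, -0.04, -0.04, -0.05 and -0.03 without floxed 8, and their order changed between settings. The F1 genes, which form the catalytic head, were close together in both groups. Atp5b, the catalytic beta subunit, had 445, 412 and 427 CPM across knockout and 460.0, 434 and 455 CPM across floxed islets (log2 fold change -0.07, 95% interval from -0.32 to 0.18), and Atp5a1, the alpha subunit, had a log2 fold change of -0.03. In the stalk and membrane part, Atp5md, a small subunit whose exons overlap Taf5 by 16 bases on the opposite strand, stood at 52.2, 44.7 and 42.1 CPM in knockout islets, against 65.2, 53.5 and 62.7 CPM in floxed. It did not overlap between groups, and the log2 fold change came to -0.38, SE 0.11 (edgeR adjusted p = 0.132). Atp5k, which encodes subunit e, had a log2 fold change of -0.41 that was -0.20 without floxed 8, at 8.67 CPM in that library and 4.56 to 6.06 CPM in the other 5.

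The c ring, the rotor that protons turn, is made of 1 mature protein encoded by 3 genes with different import sequences, and these 3 genes had unequal values, a difference that was not tested. Atp5g1 stood at 81.5, 73.7 and 70.5 CPM in knockout islets, against 93.4, 89.0 and 95.5 CPM in floxed. The groups were apart, with log2 fold change -0.30 (SE 0.09, 95% interval -0.50 to -0.10, edgeR adjusted p = 0.131). Atp5g1 was called lower by limma-voom with quality weights (-0.32, adjusted p = 0.0245) and by edgeR without floxed 8 (-0.30, adjusted p = 0.0460). Those fits called 5.19% and 5.7% of all genes lower. Atp5g2 had a log2 fold change of -0.21 with knockout 11 among the floxed libraries (94.1 CPM), and Atp5g3 had one of -0.01. Atp5g3 made up 24.5 ± 0.765% of the summed c ring CPM across knockout and 21.4 ± 1.05% across floxed islets (SD, n = 3 each), without overlap between the groups, and that share was not tested.

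Leaving out floxed 8 moved the median of the chain genes more than leaving out any other library. Floxed 8 was the highest of the 6 libraries in 64 of the 81 genes (79.0%), against 24.9% of all genes tested, and knockout 13 was the lowest in 45 (55.6%, against 17.2%). The median deviation of the chain genes from the mean of the 6 libraries was 0.04, -0.09 and -0.16 log2 CPM in knockout 11, 12 and 13 and 0.20, -0.04 and 0.05 in floxed 8, 18 and 19. Knockout 11 was therefore above floxed 18 and level with floxed 19, and the groups overlap in this measure. Without floxed 8 the median moved to -0.05 and 58 genes were below 0, as were 49.1% of all genes. In that fit 2 chain genes, Ndufa4 and Atp5g1, were called lower (5.7% of all genes were) and 0 higher (8.59%). Without knockout 13 the median was -0.08, and without knockout 11 it was -0.21.

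**Figure D3:**
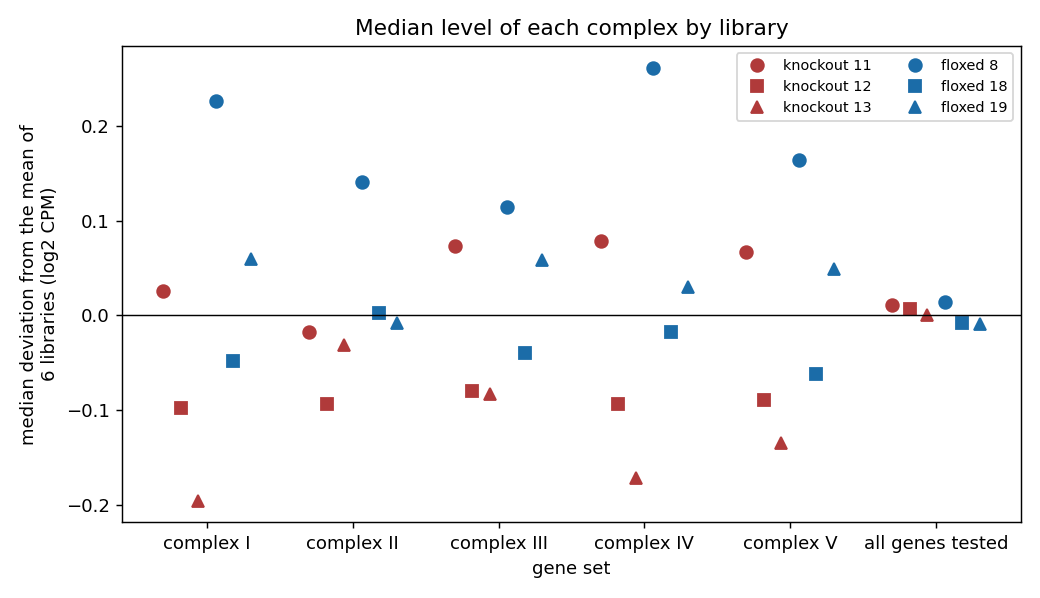
Median deviation of each complex from the mean of the 6 libraries in log2 CPM (vertical axis), with 1 point per library. Floxed 8 is the highest library in every complex and knockout 11 lies above floxed 18 in complexes I, III, IV and V, while for all genes tested the 6 libraries lie close to 0.

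As a share of counts, the groups did not overlap. The 82 genes together held 0.434, 0.445 and 0.394% of counts in knockout 11, 12 and 13 and 0.485, 0.495 and 0.493% in floxed 8, 18 and 19, a ratio of 0.864 between the means. With the insulin genes and the 13 acinar markers, but no other exocrine genes, taken out of the total, the shares were 0.819, 0.752 and 0.702% in knockout and 0.913, 0.909 and 0.922% in floxed islets. By complex, the ratio of the means in library totals lay between 0.846 and 0.882 for complexes I to V and was 0.788 for Cycs. The TMM scaling behind the fold changes, with factors from 0.924 to 1.11, draws the groups closer together than these shares do. With library totals in its place the median of the chain genes was -0.23 and that of all genes -0.09. The acinar and immediate early shares differed between the groups as well. With the acinar level as a covariate, a fit in which 0 genes were called in the whole table, the median of the chain genes was -0.34 and 77 were below 0, where 52.4% of all genes were. The acinar level, as mean log2 CPM of the markers, was 11.07 to 11.44 in knockout and 8.78 to 10.33 in floxed libraries, without overlap. This fit can therefore hardly tell genotype and acinar level apart, and its values are not a reliable adjusted effect. The part of the immediate early genes was not tested.

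Transcript length ran alongside these values. The chain genes are short, with a median annotated length of 744 bases against 2653 bases over all genes tested. Among the other genes, the median log2 fold change was -0.12 for lengths under 600 bases, -0.10 from 600 to 900, -0.08 from 900 to 1300, -0.04 from 1300 to 2000, 0.00306 from 2000 to 3500, and 0.06 at 3500 bases or more. The chain genes in the first 5 of these bins had medians of -0.16 (27 genes), -0.12 (22), -0.14 (12), -0.08 (12) and -0.03 (7). They were thus below the other genes of the same bin in each, by less than 0.1. Across genes, Spearman's rho between length and log2 fold change was 0.22 over the 10968 genes with a length and 0.24 over the 80 chain genes with one, given as a description, since genes of the same libraries are not independent.

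**Figure D4:**
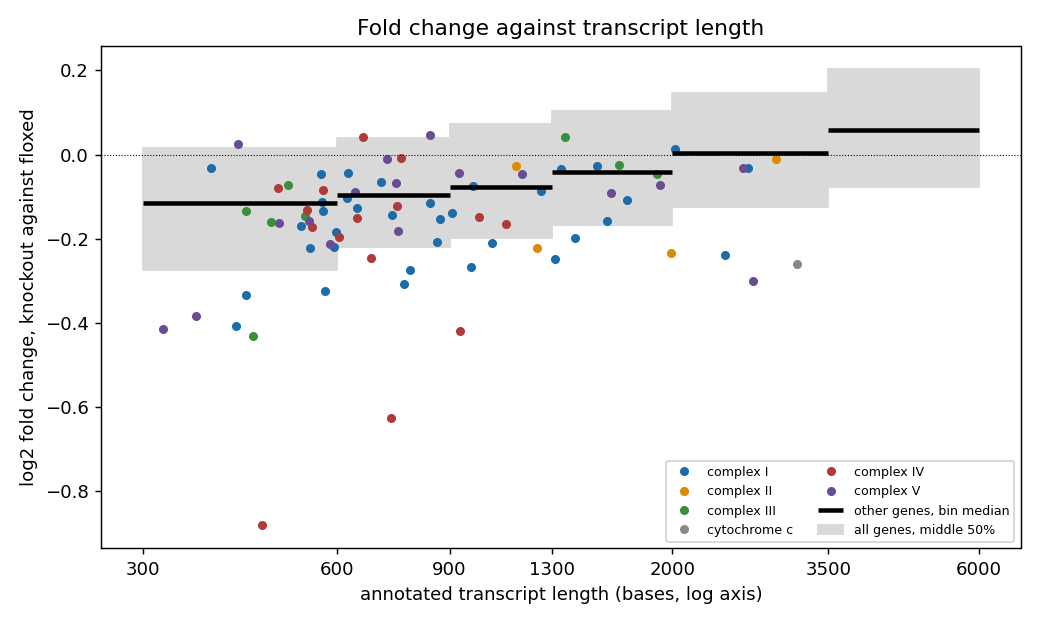
Log2 fold change of knockout against floxed islets against annotated transcript length (log axis, bases) for the 80 tested chain genes with a length. Black bars are medians of the other genes in 6 length bins, of which the outermost extend past the drawn ends, and grey is the middle 50% of all genes tested. The bars rise from -0.12 to 0.06 with length, and most chain genes lie left of 2000 bases.

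The length trend was largest in single libraries. Among other genes under 600 bases, the median deviation was 0.26 log2 CPM in floxed 8 and -0.18 in knockout 13, the same libraries that were highest and lowest in the chain genes, and between -0.09 and 0.03 in the other 4. With a length trend fitted in each library and removed, the median of the chain genes was -0.04 and 55 of 81 were below 0, where 50% of all genes were. In that fit 0 chain genes were called, where 0.0812% of all genes were called lower and 0.316% higher. Under that correction Ndufa4 had a log2 fold change of -0.79, Atp5g1 of -0.30, Ndufa1 of -0.27 and Atp5md of -0.24, while Cox5a had -0.04. The annotated transcripts of Atp5g1 differ widely (median 2676 bases, shortest 596), and with the shortest transcript as length its value was -0.23 and the median of the chain genes -0.07. With the length trend removed and floxed 8 left out together, Ndufa4 (-1.01), Ndufa3 (-0.33), Atp5g1 (-0.30) and Atp5md (-0.29) were called lower and 0 higher, where 6.74% of all genes were called lower and 9.35% higher.

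**Figure D5:**
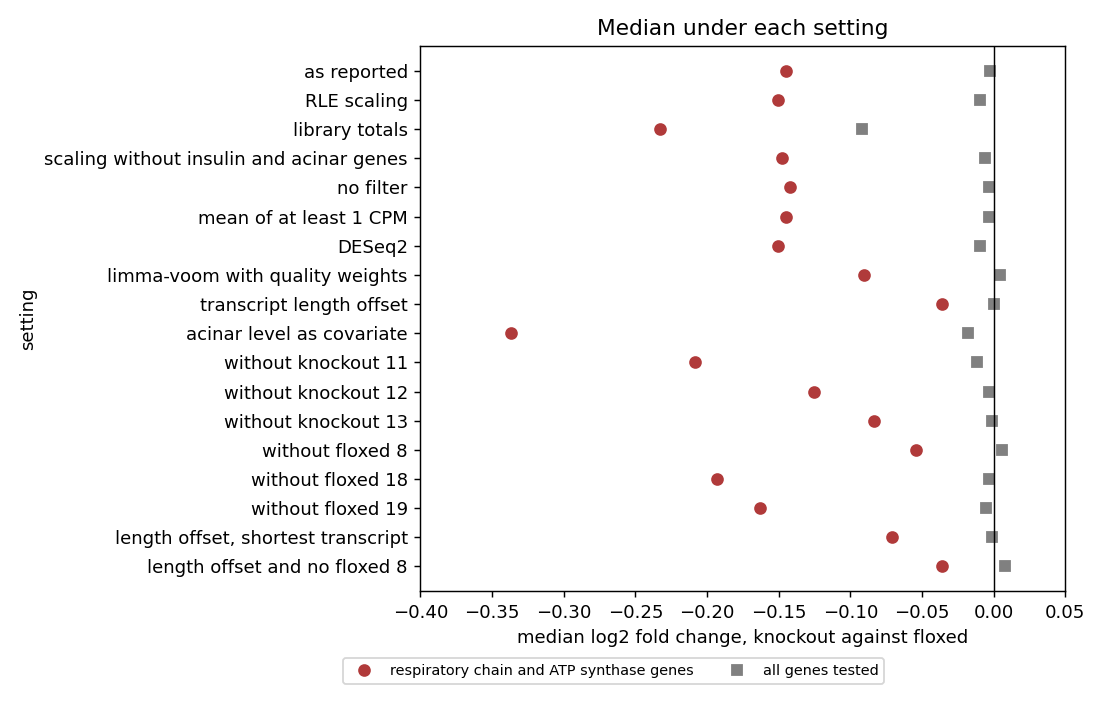
Median log2 fold change of the chain genes (circles) and of all genes tested (squares) under each setting. The chain genes were at -0.14 as reported, at -0.05 without floxed 8, at -0.04 with the length offset and at -0.34 with the acinar level as a covariate.

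Genes that work with the chain and lie outside the naming rule showed similar or smaller values, and 0 of them passed edgeR's test over all genes in any of 5 lists. Of 4 further genes of the complexes in the table, all had negative values, 1 of them at an unadjusted p below 0.05. Atpif1, which inhibits ATP hydrolysis by the synthase, stood at 58.2 ± 6.76 CPM across knockout and 70.7 ± 6.83 CPM across floxed islets (SD, n = 3 each; log2 fold change -0.28, edgeR adjusted p = 0.233), and Cyc1, the cytochrome c1 subunit of complex III, had a log2 fold change of -0.16. Of 43 assembly factors tested, 31 had negative values and the median was -0.06, with 4 lower and 0 higher at an unadjusted p below 0.05. Over all genes tested, 50.5% were below 0, 6.96% were lower and 11% higher at that threshold. Among them Foxred1, needed for assembly of complex I, had a log2 fold change of -0.36 and Sdhaf1, which serves complex II, one of -0.29 (edgeR adjusted p = 0.172 and 0.205).

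Regulators of the chain lay on both sides of 0. Of 10 tested, 6 were above 0, where 49.5% of all genes were, and the median was 0.03. At an unadjusted p below 0.05, 1 was higher and 0 lower, where 11% and 6.96% of all genes were. Nrf1, which encodes the NRF1 factor, averaged 12.95 ± 0.0785 CPM across knockout and 10.7 ± 0.439 CPM across floxed islets (SD, n = 3 each). Every knockout value was above every floxed value, as in 14.1% of all genes, with log2 fold change 0.27, SE 0.10 (edgeR adjusted p = 0.225). Gabpa had log2 fold change 0.14 (edgeR adjusted p = 0.522), and its exons overlap Atp5j by 182 bases on the opposite strand. Among 7 carriers and channels, Slc25a4, an exchanger of ADP and ATP, had -0.25 (edgeR adjusted p = 0.265) and the list a median of -0.01, with 1 lower and 0 higher at that threshold. Among 15 genes of protein import, 11 were below 0 with a median of -0.09, again with 1 lower and 0 higher, and Timm23, the channel of the inner membrane, had 40.7 ± 1.68 CPM across knockout and 47.8 ± 0.773 CPM across floxed islets (SD, n = 3 each; log2 fold change -0.23, edgeR adjusted p = 0.181).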

How the data were processed

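Per the labels' protocols, RNA was isolated with TRIzol and sequenced as read pairs of 150 bases on a DNBSEQ-T7. Per the submitters' processing notes, the authors used fastp, HISAT2 and StringTie with mm10. For versions, the counting rule and strand use, nothing is given in the sources used here. Estimated counts were deposited for each gene with no normalization, and 7 of the 82 chain genes had values that were not whole.

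The counts were rounded and tested in edgeR 4.0.16 (R 4.3.3) with filterByExpr (minimum count 10, total 15), TMM scaling and a robust quasi-likelihood fit of all 6 libraries without covariates. The 11080 genes kept were adjusted together by Benjamini-Hochberg, with a threshold of 0.05. Standard errors come from the F statistic, and log2 CPM carry a prior count of 2. In simulated data for this comparison (11078 genes), 90 of 100 genes shifted by 1 on the log2 scale and 99 of 100 shifted by 2 were recovered, with 11 unchanged genes among 200 called. These data were drawn from the fitted dispersion trend, with no library set apart and no length trend. Shifts as small as those of most chain genes were not simulated, so the recovery does not apply to them. DESeq2 1.42.0 and limma 3.58.1 were alternatives.

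Transcript length is the median of GENCODE M21 basic coding transcripts (10992 genes, 81 of the 82). For the length offset, each gene's log2 CPM was taken as a deviation from its mean over the libraries in the fit. A loess of these deviations on log2 length (span 0.3), run in each library, gave the offset. The chain genes were part of that loess, and Ndufb4c, which has no length, got no offset. Exons of 24 chain genes overlap other genes, 22 of them on the opposite strand, whose reads cannot be told apart here.

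Genes named were those with the 3 smallest p-values and the highest level per length in each complex, some of those without overlap, the isoforms and c ring genes, and others as examples chosen after their values were seen. The values of 1 chain gene are not reported here, though it stays in the counts and medians. The genes and lists were chosen with earlier results of these data known. Each library carries its own mouse number, and p-values rest on the spread between mice.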

Additional observations from a re-analysis of the deposited data

How the results depend on the processing

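No paired analysis was possible because no litter, batch or pairing is given for these littermates. The median of the chain genes stayed below 0 under all 17 alternatives and moved by more than the spread between libraries in 1 of them, the acinar covariate (-0.34). That spread, the SD of the library medians within groups, was 0.12, close to the size of the median itself (-0.14). Moves to -0.04 with the length offset and to -0.05 without floxed 8 stayed within it, so this comparison does not show a stable median. With single libraries left out the median ran from -0.21 to -0.0545, and the ratio of shares of counts from 0.843 to 0.895. The count called lower was 0 in edgeR, 1 with DESeq2, 5 with limma-voom, 4 with the length offset and no floxed 8, and 0 to 2 with single libraries left out, while 0 were called higher in each of these. The length offset with the shortest transcript and the length offset without floxed 8 were chosen after seeing the data.

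Of the 76 chain genes below 0, 10 turned positive with limma-voom, 21 with the length offset, 14 with the shortest transcript, 23 with the length offset and no floxed 8, 4 with the acinar covariate and 18 without floxed 8, while the 5 above 0 turned negative with library totals and with the acinar covariate, and the causes were not tested. Among the genes named by rule, leaving aside the added examples, those that turned positive with limma-voom were Atp5g3 (0.0231), Cox6a2 (0.0754), Ndufa6 (0.0958) and Sdha (0.00692). With the length offset they were Atp5g3 (0.0939), Ndufa6 (0.126) and Sdhb (0.0416), and with the shortest transcript Atp5g3 (0.0585), Ndufa6 (0.0799) and Sdhb (0.0119). With the length offset and no floxed 8 they were Atp5g3 (0.0871), Cox6a2 (0.187), Ndufa6 (0.1805), Sdha (0.000742) and Uqcrh (0.00446). With the acinar covariate they were Cox4i2 (0.31) and Ndufa4l2 (0.14). With single libraries left out, the ranges were -0.0912 to 0.0608 for Atp5g3, -0.53 to 0.17 for Cox6a2, -0.12 to 0.14 for Ndufa6 and -0.0275 to 0.00243 for Sdha. With 3 libraries a group, an exact permutation test cannot go below p = 0.10.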
